A study of Mus musculus with 2 samples.

Results

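Genes of the piRNA pathway were examined for where RNA recovered with BUD31 lay along them. The 7 genes are Piwil1, which encodes a PIWI protein, Tdrd5 and Tdrd9, which encode Tudor domain proteins, Mov10l1, which encodes a helicase, Fkbp6, which encodes a chaperone partner, Mael, and Mybl1, which encodes the transcription factor of pachytene piRNA precursors. They are 7 of the 3258 genes named in the deposited peak list, and they were chosen by symbol from genes already known to have peaks there. Having peaks is therefore what chose them, and their values are given as a description with no test. Of all 14867 protein-coding genes on chromosomes with at least 1 peak, 18.8% were named by one. That share was 39.9% on chromosome 1, 39.2% on chromosome 5, 44.2% on chromosome 12 and 3.87% on chromosome 15, the 4 chromosomes that carry these genes.

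The assay was RNA immunoprecipitation sequencing (RIP-seq), in which RNA bound to a protein is recovered with an antibody and sequenced. Germ cells were released enzymatically from testes of the C57BL/6J strain on postnatal day 14. The groups were an immunoprecipitation with an anti-BUD31 antibody and an input of total RNA, each as 1 library, and the labels name no genetic change or drug for either. BUD31 is a protein of the spliceosome, the machine that removes introns from precursor RNAs. The labels do not say how many animals were pooled or which germ cell stages were present.

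The values are the authors' peaks, stretches of the mm10 genome with a gene name and 1 annotation class each. The list holds no read count, fold, score or strand, so depth is unknown and the strength of a peak cannot be given. With 1 library per group there was no replicate check. The list holds 4 of 10 germ cell marker genes, which are Sycp3, Kit, Mael and Tex14. Mael is 1 of the 7 genes chosen for having peaks, so its place among the 4 was fixed in advance. Another 5 of the 10 lie on chromosomes with no peak in the list, and Dazl on chromosome 17 had none. The single Tex14 peak lies over the small nuclear RNA gene Rnu1a1. Of 13 markers of Sertoli, Leydig and peritubular cells and macrophages that lie on chromosomes with peaks, Wt1 and Myh11 had 1 each. The other 11 had none. Only 7 of the 13 lie on chromosomes where 10% or more of coding genes were named by a peak. Of these 7, 1 had a peak. All 3 germ cell markers on such chromosomes had one, Mael among them. Of all coding genes on chromosomes with a peak, 18.8% were named. The share was 35.7% over the chromosomes where 10% or more were named. The marker counts are small and do not show which cells were present.

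PIWI-interacting RNAs (piRNAs) are small RNAs of the germ line that guide PIWI proteins to transposons and other transcripts. In the mouse testis, RNAs made from long precursor transcripts are loaded onto PIWI proteins and trimmed. Tudor domain proteins are scaffolds of the granules in which this takes place. During the pachytene stage of meiosis the transcription factor A-MYB, the product of Mybl1, switches on precursor clusters and genes of the pathway itself.

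Promoter stretches are shown because the MYB motif is the letters that the product of 1 of the 7 genes is known to bind. RefSeq promoter windows of the GRCm38.p6 build, from 250 bases before to 50 bases after a gene's start, were matched for 6 of the 7 genes. Mybl1 was not matched. Each line gives 30 bases in the gene's own direction, with the first listed match per gene to the MYB motif AACNGNC, or GNCNGTT on the opposite strand, in capitals.
Piwil1: gccccacacaaAACCGCCacccacgtggca
Tdrd5: aggtctccgctAACCGTCacaccggccgcg
Tdrd9: gaggcttctggAACGGTCgttggcctgctg
Mov10l1: cttcacgtgctAACCGCCaacctctcgtgg
Fkbp6: aggcctttggaGACAGTTgtgcggcaagat
Mael: atccagtttcaGGCTGTTttcacccccaca

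The windows lie at chr5:128736046-128736075 for Piwil1, chr12:111971541-111971570 for Tdrd9 and chr15:88982745-88982774 for Mov10l1 on the plus strand. Those of Tdrd5 at chr1:156303477-156303506, Fkbp6 at chr5:135349990-135350019 and Mael at chr1:166238823-166238852 are on the minus strand. The matches begin 189 bases before the start in Piwil1, 147 in Tdrd5, 7 in Tdrd9, 238 in Mov10l1 and 97 in Mael. Fkbp6 has 2 listed starts. Its match begins 95 bases before the start nearer the 3′ end of the gene and 36 bases after the other. A match was present in all 6 matched genes, against 36.0% of the 27025 genes in the table. The contrast was not tested. Piwil1 held 3 matches and Mov10l1 held 2. A match describes letters and is not evidence of binding.

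A second motif, the E-box CACGTG, which reads the same on both strands, was picked out after these sequences were seen. Basic helix-loop-helix factors are known to bind such letters, and TCFL5, a testis transcription factor, is one of that class. The E-box stood in 5 of the 6 matched genes, against 8.09% of the 27025 genes in the table, and Tdrd5 held none. Because the motif was picked from these same sequences, a high count in them follows from the choice, and the contrast was not tested. An E-box match is likewise not evidence of binding. No E-box shared a base with a MYB match. The lines give 1 E-box per gene in capitals.
Piwil1: aaaaccgccaccCACGTGgcagccaatcag
Tdrd9: ggtctccataaaCACGTGcctgtccaggtc
Mov10l1: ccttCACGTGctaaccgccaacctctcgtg
Fkbp6: gcgtctatcgatCACGTGccgtttctctcg
Mael: taccaggcctacCACGTGacaatccccgcc

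These windows lie at chr5:128736055-128736084 for Piwil1, chr12:111971382-111971411 for Tdrd9 and chr15:88982744-88982773 for Mov10l1 on the plus strand, and at chr5:135350064-135350093 for Fkbp6 and chr1:166238950-166238979 for Mael on the minus strand. No peak of these genes overlapped any of their 7 promoter windows. The nearest peak edge lay 113 bp from the nearer of the 2 listed starts of Fkbp6 and 262 bp from that of Tdrd9. It lay 1918 bp away in Tdrd5, 4355 bp in Piwil1, 5807 bp in Mov10l1 and 12649 bp in Mael. Only in Fkbp6 and Tdrd9 was that distance under 1 kb. None of their 66 peaks was annotated as 5′ UTR or as upstream, classes that held only 0.732% and 0.125% of the other peaks of protein-coding genes, so their absence says nothing particular of these genes.

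The 7 genes carried 66 peaks in total, of which 63 overlapped the gene they name. These covered 117.9 kb of 368.5 kb of gene, or 32.0%. Introns held 56 of the 66 peaks, exons 4, 3′ UTRs 2, and the other 4, all of Mael, were annotated as downstream or intergenic. The intron share was 84.8% (Wilson 95% interval 74.3% to 91.6%), against 84.6% (84.0% to 85.1%) of 14346 other peaks of protein-coding genes, so the intervals overlap. The intervals cover counting error over peaks only, and peaks of 1 gene are not independent. Because each peak has 1 class, a broad one named intron may extend over exons. Fewer cells of a type and less RNA per cell cannot be told apart in this assay.

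**Figure D1:**
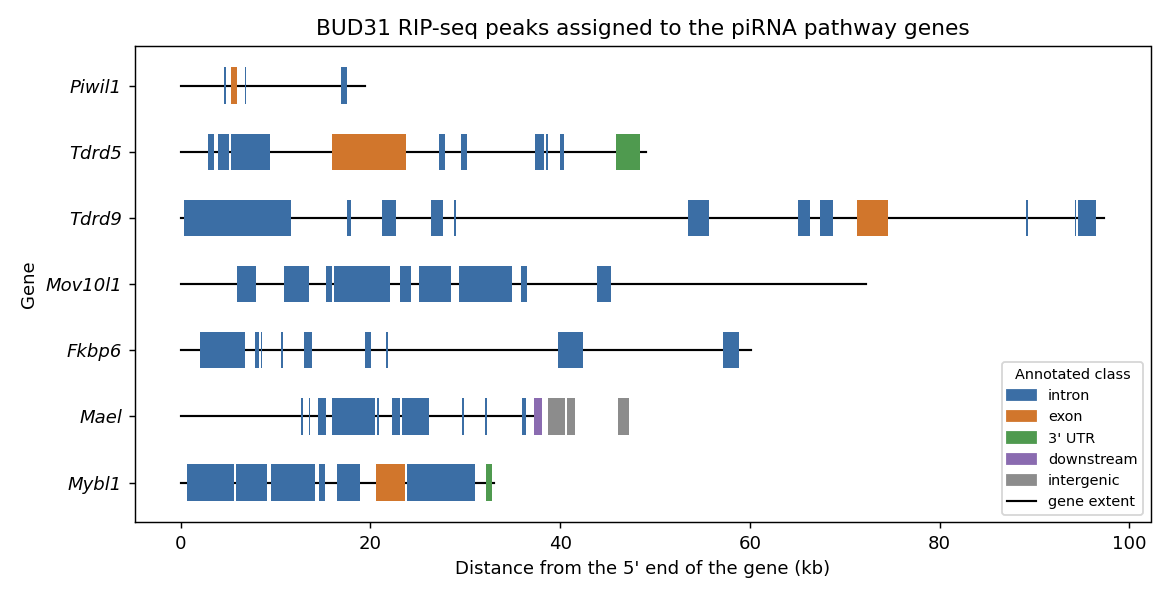
Peaks assigned to each of the 7 genes, drawn as boxes coloured by annotated class along a line for the gene's extent, with distance from the gene's 5′ end in kb on the horizontal axis and the genes down the page. Mybl1 is covered nearly throughout, Mov10l1 has no peak in its last 27.0 kb, and 4 peaks of Mael reach or lie beyond its 3′ end.

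Piwil1 encodes the PIWI protein MIWI, which binds piRNAs in pachytene spermatocytes and spermatids. The gene runs from 128736071 to 128755474 on chromosome 5, a span of 19.4 kb, and is the shortest of the 7. Positions along a gene are given from the 5′ end of its extent in the reference table, which can lie upstream of the listed start. Its 4 peaks covered 1.60 kb, or 8.25% of its length, the lowest share of the 7. From 5′ to 3′ they were 200, 600, 200 and 600 bp wide, which is 1 or 3 of the 200 bp bins in which positions on chromosome 5 are set. The first 3 lay together, between 4.53 and 6.93 kb from the 5′ end, and the second of these, at 128741401 to 128742000, was the 1 annotated as exon. The other lay alone at 16.9 to 17.5 kb, in an intron.

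Between them was a stretch of 10.0 kb without a listed peak, 51.5% of the gene. The authors number their peaks in order along each chromosome, and 5 numbers within that stretch have no entry in the list. In all, 6 of the 10 numbers from the first to the last Piwil1 peak are not listed, so a bare stretch may still have had a call. By covered share Piwil1 stood at place 282 of 497 coding genes with a peak on chromosome 5, between Thoc2l (8.29%) and Kmt2c (8.19%). Fzd10, the nearest coding gene on its 5′ side, had no peak, and Rimbp2 on its 3′ side had 1.

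Tdrd5 and Tdrd9 encode Tudor domain proteins, which bind methylated arginines of PIWI proteins. TDRD9 also carries a helicase domain and acts in transposon silencing, and TDRD5 is known in mice for the assembly of germ granules and the processing of pachytene precursors. Tdrd5 runs from 156255296 to 156304304 on chromosome 1, a span of 49.0 kb, and lies on the minus strand. Its 10 peaks covered 38.9% of it. Only Mybl1 had a larger share among the 7.

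The peaks of Tdrd5 were very unequal. The widest, annotated as exon, was 7790 bp at 156280521 to 156288310 and alone made up 40.9% of the summed peak width. An intron peak of 4100 bp came next in width, at 5.33 to 9.43 kb from the 5′ end, and then 1 of 2460 bp annotated as 3′ UTR, at 156255921 to 156258380. The other 7 were 205 to 1230 bp wide and all lay in introns. The 3 peaks closest to the 5′ end, from 2.87 to 9.43 kb, were separated by 410 and 205 bp and nearly form 1 block.

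A peak of 2870 bp that lies wholly inside Tdrd5, at 156277241 to 156280110, was named by the authors for the long noncoding RNA gene Gm30472 and annotated as its exon. The reference table places Gm30472 outside Tdrd5, at 156213111 to 156223947. Another peak named for Gm30472 reaches 420 bp into the 3′ end of Tdrd5. Counting both, 12 peaks overlapped Tdrd5 and covered 45.6% of it. The list gives no strand, so RNA of the 2 genes cannot be told apart. Tdrd5 stood at place 184 of 480 by covered share on chromosome 1, between Ankar (39.1%) and Dnah14 (38.9%). Fam163a, the nearest coding gene on the 3′ side, had no peak.

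Tdrd9 runs from 111971488 to 112068854 on chromosome 12 and is the longest of the 7, with a span of 97.4 kb. It carried 12 peaks over 25.7% of its length. The widest peak of all 7 genes was its first, annotated as intron, which ran for 11275 bp from 111971821 to 111983095. It began 0.333 kb from the 5′ end of the gene and made up 45.1% of the summed width. The small coding gene Rd3l, at 111979191 to 111981317, lies wholly under it, so that peak cannot be assigned to 1 of the 2 by position.

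The other 11 peaks of Tdrd9 were 205 to 3280 bp wide. The 4 that followed lay between 17.6 and 29.0 kb, and after a bare stretch of 24.4 kb the remaining 7 lay between 53.4 and 96.5 kb. The peak of 3280 bp, at 112042751 to 112046030, was the 1 annotated as exon. Of the 39 running numbers from the first to the last peak, 27 are not listed, 6 of them in the bare stretch. Tdrd9 stood at place 168 of 300 by covered share on chromosome 12, between Pnn (26.0%) and Churc1 (25.6%). Atp5mpl, the nearest coding gene on the 5′ side, had no peak, and the 3 peaks named for Aspg on the 3′ side covered none of that gene. Aspg begins 37.8 kb from Tdrd9, but 1 of these peaks, annotated as intergenic, lay 1.98 kb beyond the 3′ end of Tdrd9.

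Mov10l1 encodes an RNA helicase that binds piRNA precursors and is needed for their processing. It lies on chromosome 15, where only 30 of 776 coding genes had a peak. The gene runs from 88982891 to 89055152, a span of 72.3 kb. Its 9 peaks, all annotated as intron, covered 32.4% of it.

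No other coding gene on chromosome 15 had as many peaks. Next were Pabpc1 with 8, Mroh4 with 7 and Pcbp2 with 6. The 9 peaks are among 84 on that chromosome and hold 17.1% of the summed peak width there. By covered share Mov10l1 stood at place 5 of 30, between Pcbp2 (35.8%) and Dazap2 (22.8%). The median of the other 29 genes was 6.62%, with an interquartile range of 3.46% to 16.4%. These other genes had a median of 1 peak.

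From 5′ to 3′ the Mov10l1 peaks were 2000, 2600, 600, 6000, 1200, 3400, 5600, 600 and 1400 bp wide, and none was a single bin. The first 8 formed a block between 5.91 and 36.5 kb from the 5′ end, with gaps of 0.2 to 3 kb. The ninth lay at 43.9 to 45.3 kb. The last 27.0 kb, or 37.3% of the gene, held none. The 600 bp peak at 89018801 to 89019400 covers the small nuclear RNA gene Gm23737, at 89019221 to 89019379.

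Unlike in the other 6 genes, no running number is missing between the Mov10l1 peaks. The numbering also runs on without a break to the peaks on either side. On the 5′ side that is a peak of Mlc1, 8.49 kb away, and on the 3′ side one of Pphln1, 4435 kb away. All 84 numbers from the first to the last peak of chromosome 15 are listed, whereas on chromosome 1 the numbers run from 1 to 16089 for 4806 listed peaks. The bare 3′ part of Mov10l1 is therefore bare in the authors' numbering as well, which cannot be said of the bare stretches of Piwil1, Tdrd9 and Fkbp6. Panx2, the nearest coding gene on the 3′ side, had no peak.

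Fkbp6 encodes an immunophilin-like protein that works with the chaperone HSP90 when PIWI proteins are loaded. It runs from 135291704 to 135351809 on the minus strand of chromosome 5, a span of 60.1 kb. Its 9 peaks, all annotated as intron, covered 19.0% of it. A single peak of 4800 bp, at 135345001 to 135349800, made up 42.1% of the summed width and lay closest to the 5′ end. Behind it, between 7.81 and 21.8 kb, came 6 narrow peaks of 200 to 800 bp, of which 3 were a single bin.

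The remaining 2, of 2600 and 1600 bp, stood apart at 39.8 to 42.4 kb and 57.2 to 58.8 kb. The 4 peaks farthest from the 5′ end, which include these, were annotated on a single predicted transcript, XM_017321190.1. The other 5 were annotated on NM_001277891.1 or XM_011240915.1. Of the 35 running numbers across the gene 26 are not listed, and 11 of these fall in the longest bare stretch, of 18.0 kb. Fkbp6 stood at place 134 of 497 by covered share on chromosome 5, between Sec31a (19.0%) and Trrap (18.9%). Its nearest coding neighbours, Trim50, whose extent begins 0.074 kb away, and Fzd9, had no peak.

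Mael encodes Maelstrom, a protein of germ granules that is required for transposon silencing in mouse spermatocytes. It runs from 166201385 to 166238744 on the minus strand of chromosome 1, a span of 37.4 kb. It had 14 peaks, the most of the 7 genes, but only 11 overlapped the gene, and these covered 28.3% of it. The 10 annotated as intron began 12.6 kb from the 5′ end. The 5′ part before them, 33.9% of the gene, held none.

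Within Mael the widest peaks lay mid-gene. Intron peaks of 4510 bp, at 166218306 to 166222815, and 2870 bp, at 166212566 to 166215435, were the widest, and 5 of the 10 intron peaks were a single bin of 205 bp. Beyond the gene, a peak of 820 bp annotated as downstream overlapped its last 111 bp. The 3 annotated as intergenic, of 1845, 820 and 1230 bp, lay up to 47.3 kb from the 5′ end, on a gene of 37.4 kb. Next in that direction, 18.5 kb from Mael, came a peak named for Gpa33. No peak named for another gene lay between the Mael peaks.

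Of the 24 running numbers from the first to the last Mael peak, 10 are not listed. On the 5′ side the next listed peak, of Tada1, is 146 kb away, and 60 numbers between are not listed. Ildr2, the nearest coding gene on that side, had no peak. Mael stood at place 251 of 480 by covered share on chromosome 1, between Atg16l1 (28.6%) and Insig2 (28.2%).

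Mybl1 encodes A-MYB. It runs from 9667407 to 9700439 on chromosome 1, a span of 33.0 kb, and is read here on the minus strand because its peak annotated as 3′ UTR lies at the lower coordinates. Its 8 peaks covered 26.9 kb, or 81.3% of the gene, the highest share of the 7. From 5′ to 3′ they were 4920, 3280, 4715, 615, 2460, 3075, 7175 and 615 bp wide. Unlike in the other 6 genes, no stretch longer than 1.64 kb was bare.

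The first Mybl1 peak began 0.659 kb from the 5′ end and the last ended 0.189 kb from the 3′ end. The peak of 3075 bp at 9676821 to 9679895 was annotated as exon and the last, at 9667596 to 9668210, as 3′ UTR. Only 1 of the 9 running numbers is not listed. By covered share Mybl1 stood at place 16 of 480 on chromosome 1, between Eif5b (82.2%) and Actr3 (80.4%), where the median of 477 other genes was 30.4%. Vcpip1, the nearest coding gene on its 5′ side, had 5 peaks over 77.9% of its length, and the numbering runs on from Mybl1 to it without a break. Vxn on the 3′ side had none. Beyond Vxn the numbering also runs on without a break, to a peak of Rrs1 120 kb from Mybl1. Rrs1 was covered over 79.6% of its length.

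**Figure D2:**
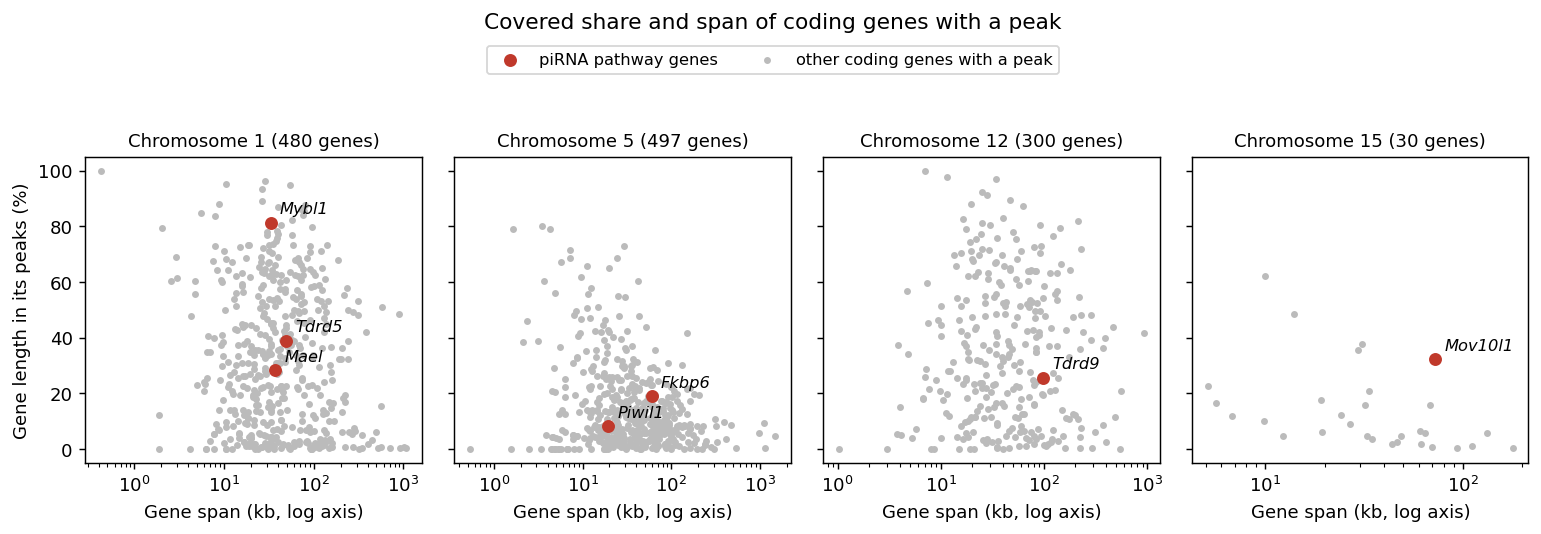
Share of gene length in its own peaks (vertical axis, %) against gene span (horizontal axis, kb, log axis) for every coding gene with a peak on chromosomes 1, 5, 12 and 15, with the 7 piRNA pathway genes in red and the others in grey. Mybl1 lies near the top on chromosome 1 at 81.3% and Mov10l1 at 32.4% on the thinly covered chromosome 15, while the other 5 lie among the grey points.

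Set against the genes of their own chromosome, the 7 therefore differ. Mybl1 and Mov10l1 lay above the upper quartile of other coding genes with a peak, which was 53.2% on chromosome 1 and 16.4% on chromosome 15. Tdrd5 at 38.9% and Fkbp6 at 19.0% lay between the median and the upper quartile, at 30.4% to 53.2% on chromosome 1 and 10.1% to 19.9% on chromosome 5. Mael, Tdrd9 and Piwil1 lay below the medians of 30.4%, 32.0% and 10.1%.

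The genes also differed in where along their length the peaks fell. When each gene was divided into 5 segments of equal length from 5′ to 3′, Tdrd5, Tdrd9 and Fkbp6 had their highest share in the first, at 60.7%, 60.0% and 46.6%. For Tdrd5 this holds only for the peaks named for it. With the peaks named for Gm30472 counted, the third reached 78.2%, above the first. The first segment of Tdrd9 rests mostly on its peak of 11275 bp, which also lies over Rd3l and cannot be assigned by position. The only other Tdrd9 peak in that segment was 410 bp wide. Mov10l1 had its highest share in the second, at 77.5%, and none in the last. Piwil1 and Mael had none in the first, and the highest share of Mael was in the third, at 69.8%. Mybl1 had at least 61.3% in every segment. The mean of 2223 other coding genes with a peak and a known strand was nearly flat, at 22.2%, 24.2%, 24.2%, 24.3% and 23.8%. That mean hides the spread of single genes, and no pattern is common to the 7.

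**Figure D3:**
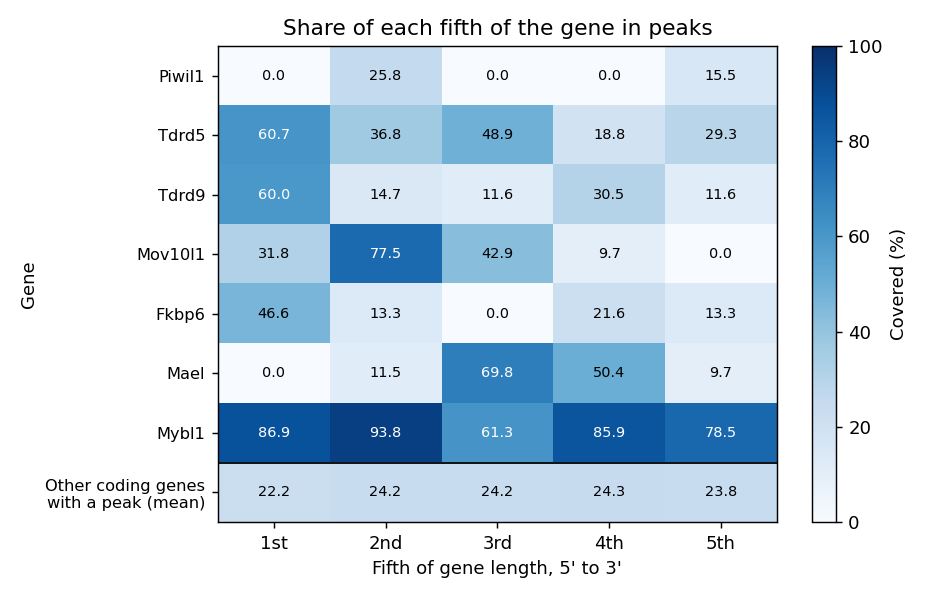
Share of each of 5 equal segments of a gene in its peaks (%, printed in each cell), 5′ to 3′ from left to right, for the 7 genes and, in the bottom row, the mean of 2223 other coding genes with a peak. By the peaks named for each gene, Tdrd5, Tdrd9 and Fkbp6 are highest in the first segment. Tdrd5 is highest in the third, at 78.2%, once peaks named for Gm30472 are counted. The first segment of Tdrd9 rests mostly on a peak that also lies over Rd3l. Mov10l1 is highest in the second and Mael in the third, and Mybl1 is high in all.

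Peak widths differed between the genes too. The median was 3177.5 bp in Mybl1 and 2000 bp in Mov10l1, the 2 genes with no peak of a single bin. It was 1332.5 bp in Tdrd9, 820 bp in both Tdrd5 and Mael, 600 bp in Fkbp6 and 400 bp in Piwil1. Over all 66 peaks the median was 922.5 bp (interquartile range 410 to 2565), against 1400 bp (615 to 3075) for the other 14346 peaks of protein-coding genes. A single bin made up 14 of the 66 peaks (21.2%), against 13.03% of the others. These pooled contrasts were not matched by chromosome, and peak width differed between chromosomes. Over all listed peaks the median was 1025, 800, 2255 and 1200 bp on chromosomes 1, 5, 12 and 15. Bins were 200 bp on chromosomes 5 and 15 and 205 bp on chromosomes 1 and 12, which sets the finest width that can be given.

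**Figure D4:**
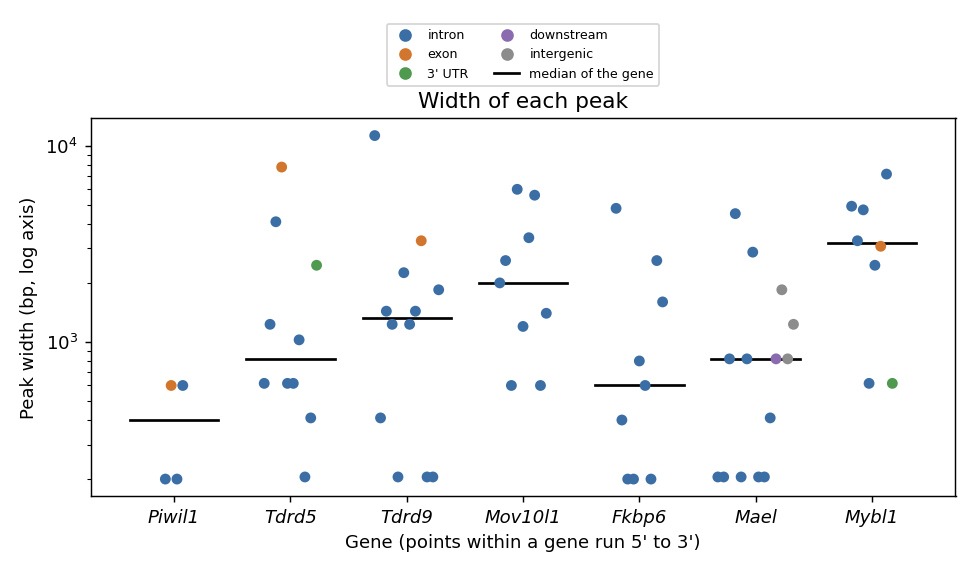
Width of each of the 66 peaks (vertical axis, bp, log axis), grouped by gene, with points within a gene running 5′ to 3′ and coloured by annotated class, and a bar at each gene's median. Medians run from 400 bp in Piwil1 to 3177.5 bp in Mybl1, and the widest peak, of 11275 bp, is the first of Tdrd9.

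Gaps between neighbouring peaks were often short. Of 59 gaps 10 were a single bin, so that the number of peaks depends on whether such neighbours are joined. Joining them left 56. A running number is missing in 27 of the 59 gaps, and 84 of the 151 numbers spanned by the 7 genes are not listed. What set these numbers aside is not given in the sources used here. Of the 14 nearest coding neighbours of the 7 genes, 5 had a peak assigned to them. In 3 of these, Rimbp2, Mlc1 and Vcpip1, a peak lay inside the gene. Of all coding genes on chromosomes 1, 5, 12 and 15, 39.9%, 39.2%, 44.2% and 3.87% were named by a peak. The count of 5 therefore says nothing particular of the surroundings of the 7 genes.

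The wider pathway was taken as 32 genes in 5 roles, of which 10 had a peak. Besides the 7, these were Tcfl5, Tex15 and Gpat2. Of the 32 genes 21 lie on chromosomes with peaks, where 18.8% of all coding genes were named by one. The list was drawn up with the 7 genes known to have peaks, so its share is not a result about the pathway. Of the remaining 22 genes, 11 lie on chromosomes without a listed peak, which were not analysed here, and 11 lie on chromosomes with peaks and had none.

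Tcfl5 encodes a transcription factor that acts beside A-MYB in pachytene spermatocytes. It had 2 intron peaks on chromosome 2, of 1200 bp at 180630801 to 180632000 and 800 bp at 180635001 to 180635800, which covered 9.65% of it. Only 5.78% of coding genes on that chromosome had a peak. Gpat2, an outer mitochondrial membrane protein with a role in piRNA production, had 1 intron peak of 400 bp at 127430801 to 127431200 on the same chromosome. Tex15, a nuclear protein of piRNA-directed DNA methylation, had intron peaks of 800 and 1400 bp on chromosome 8 over 2.90% of its length. The covered share of Tcfl5 was above that of Piwil1 (8.25%) and below those of the other 6 genes, and Gpat2 (3.66%) and Tex15 were below all 7.

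Among PIWI genes, Piwil1 was the only one of 3 on a chromosome with peaks. Of 10 Tudor protein genes 5 lay on such chromosomes, and Tdrd1, Tdrd6 and Tdrd7 had no peak. Among helicases, nucleases and processing enzymes, Pld6, Pnldc1 and Exd1 had none. Gtsf1, Hsp90aa1, Spocd1 and Morc1 had none among chaperones and partners, nor did Btbd18, which controls a part of the precursor clusters. Of these 11 genes, Hsp90aa1 on chromosome 12 and Morc1 on chromosome 16 are on chromosomes in which 10% or more of the coding genes were named by a peak. The other 9 lie on chromosomes where few genes had one, from 0% on chromosomes 4 and 19 to 5.78% on chromosome 2.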

How the data were processed

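The deposited data are 1 annotated peak list from 1 anti-BUD31 and 1 input library. Per the submitters' processing notes, TopHat2 2.0.13 was the aligner and mm10 the build. How peaks were called, at which threshold, with what use of the input and which annotation, is not given in the sources used here. Per the file headers, the deposited columns are positions, an annotation class, a transcript and a gene, with no other measured value.

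Gene extents and promoter windows came from RefSeq tables of GRCm38.p6, the mm10 assembly, matched by gene number. The authors' transcript names come from an unstated release: of 17 named, 8 stand in the table in the same version. A peak belongs to the gene the authors name. Covered length is the union of a gene's peaks within its extent. Bins are the largest common divisor of widths and starts per chromosome. The genes and lists were chosen with earlier results of these data known. The genes named are the 7, pathway genes, genes overlapping their peaks, and chromosome neighbours by covered share. Nearest neighbours, the other genes with most peaks on chromosome 15 and the CACGTG motif were added after values were seen. Interval and motif counting were tested on simulated data. Alternatives were overlap rules, wider peaks, joined peaks and leaving out genes. Python 3.11.15, pandas 2.3.3 and statsmodels 0.14.6 were used.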

Additional observations from a re-analysis of the deposited data

How the results depend on the processing

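Of 21 recomputed summary values 19 kept within limits, which were a factor of 1.5 for counts and the Wilson interval for shares. Dropping peaks narrower than the median of their chromosome left 29 of 66 peaks and 26.7% of the summed gene length covered, against 32.0%, by construction. Under it Piwil1 kept 0 peaks, and Tdrd5, Tdrd9, Fkbp6 and Mael kept 5, 3, 4 and 4. This setting gave an intron share of 79.3%. Under the other rules the peak total ran from 56 to 65 and the intron share from 81.6% to 88.9%. The 10 pathway genes with a peak became 7 on well covered chromosomes, which leaves out Mov10l1, Gpat2 and Tcfl5. Those chromosomes hold 9 of the 32 pathway genes, and 35.7% of all their coding genes were named by a peak. All of the 7 except Tex15 were chosen for having peaks, so the share is not a result about the pathway. No paired analysis was possible because there was 1 library per group. Unknown depth and peak strength limit every gene, and unlisted numbers limit every gene except Mov10l1. Counting peaks named for Gm30472, added after the data were seen, moved the third segment of Tdrd5 to 78.2%, against 48.9%.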
